A study of Macaca fascicularis with 12 samples.

Results

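Angiotensin and nitric oxide signalling is described here through 10 genes, out of 18160 single gene symbols measured in the series. A probe belonged to a gene when the platform annotation gave that gene as its only symbol, and 14 probes met this rule. Of these, 13 were tested, and the remaining NOS3 probe, 135005, held no value on any array. A further 3 probes that carry PDE5A together with another symbol were not used. The genes are the substrate AGT, the converting enzyme ACE, the angiotensin receptors AGTR1 and AGTR2, the nitric oxide synthases NOS3 and NOS1, the natriuretic peptide receptors NPR1 and NPR3, the cGMP-dependent kinase PRKG1 and the cGMP phosphodiesterase PDE5A.

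Angiotensinogen is cut by renin and then by the converting enzyme to angiotensin II, which acts on receptors of vascular smooth muscle, where the AGTR1 receptor drives contraction and growth and the AGTR2 receptor is known to oppose it. Nitric oxide made in endothelium and in perivascular nerves raises cGMP in smooth muscle through a soluble guanylate cyclase, and natriuretic peptides raise it through NPR1, a receptor that is itself a guanylate cyclase. PRKG1 carries the cGMP signal to relaxation, PDE5A breaks cGMP down, and NPR3 clears natriuretic peptides from the tissue.

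RNA came from an iliac artery biopsy of each of 12 female cynomolgus monkeys older than 20 years. All of them, whatever their plaque, had eaten a high fat diet (8 years) and lived without ovaries (4 years), so no group stands for a normal artery. The submitters sorted the arteries by plaque area. The 4 small plaque arteries lay between 0 and 0.113 mm2, and the pair at 0 had no plaque. The 5 medium ones lay between 0.30 and 0.542 mm2, and plaques of the 3 large ones were of 0.61 to 1.003 mm2. The RNA was of whole artery biopsies and not of dissected plaque, and in such bulk tissue fewer cells of a type and less RNA per cell cannot be told apart.

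Each artery was hybridized to 1 single-colour array of human probes, and a mismatch to the monkey transcript can dim a probe, so each probe was compared only with itself across arteries. Intensities are those deposited, scaled so that array medians lay between 1.0037 and 1.0085, and arrays correlated across probes with r from 0.919 to 0.972. The smooth muscle markers ACTA2 and MYH11 averaged 361 and 486 on this scale, so markers of artery wall muscle were present. Macrophage markers had summed intensities of 67.0 to 121.5 in small, 257.9 to 548.3 in medium and 287.2 to 430.0 in large plaque arteries, over 9 of 10 listed genes measured. Contractile smooth muscle markers, 9 of 12 measured, summed to 1667 to 2511 in small, 765.9 to 1391 in medium and 953.1 to 1605 in large. Endothelium markers, all 10 measured, summed to 39.2 to 52.3, 33.2 to 44.1 and 35.6 to 49.0 in the same order. Small replicate 4 and medium replicate 5 have animal numbers far from those of the other 10, which the labels do not explain.

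The angiotensin II receptor AGTR1 was the member that changed most between plaque groups. Its probe, 261068, read 7.14, 7.73, 3.79 and 12.1 in small replicates 1 to 4, then 2.10, 2.62, 2.62, 1.89 and 1.82 in medium replicates 1 to 5, and 2.71, 4.08 and 2.81 in large replicates 1 to 3. Every medium artery lay below every small artery, while large replicate 2 stood just above small replicate 3, the lowest of the small group. In medium against small 3 of the 13 member probes did not overlap, and the share over all probes was not counted. On the log2 scale the mean was 1.13 ± 0.25 in medium (SD, n = 5) against 2.83 ± 0.69 in small (SD, n = 4).

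In medium against small plaque AGTR1 fell by 1.70 ± 0.29 log2 units (SE, limma adjusted p 0.00953), which is a level of 0.308 of that in small. It was the only 1 of the 13 member probes called there, at an adjusted p under 0.05 over all probes, where 3.14% of all 53877 probes were called. In large against small its difference was -1.17 ± 0.33, with a 95% interval from -1.89 to -0.46 and an adjusted p of 0.108. With single arteries left out it was -1.47 and called without small replicate 3, the lowest of the small group (limma adjusted p 0.0262), and not called without any other, with -0.92 (adjusted p 0.156) without small replicate 4. With the contractile smooth muscle markers as a covariate it was -0.88 (adjusted p 0.594). No member probe was called by limma in that comparison, with 2 at an unadjusted p under 0.05, while 1.15% of all probes were called and 16.1% had an unadjusted p under 0.05. These comparisons share the small arteries. A moderated F test of any difference among the groups called AGTR1 alone of the members (adjusted p 0.0257), against 1.97% of all probes, and its call was lost without small replicate 1, 2 or 4 or medium replicate 4 or 5.

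Taking the mean of medium and large against small, AGTR1 fell by 1.44 ± 0.27 (adjusted p 0.0127), and 2 of 13 member probes were called, both lower, where 4.26% of all probes were called. That call held with each artery left out in turn, with values from -1.74 to -1.18. With the mean of the contractile markers as a covariate the difference was -1.08 ± 0.43 (adjusted p 0.62), and with the endothelium markers -1.31 ± 0.31 (adjusted p 0.0612). In medium against small the values were -1.28 ± 0.49 (adjusted p 0.795) and -1.53 ± 0.36 (adjusted p 0.0758) with the same covariates. The contractile covariate left 9 called probes of the whole array in medium and large against small, where 2295 were called without it. The summed contractile markers of every small artery (1667 or more) lay above those of every medium and large artery (1605 or less). This covariate and the plaque groups can thus hardly be told apart, and a call lost with it, here or for a gene below, does not show why.

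**Figure D1:**
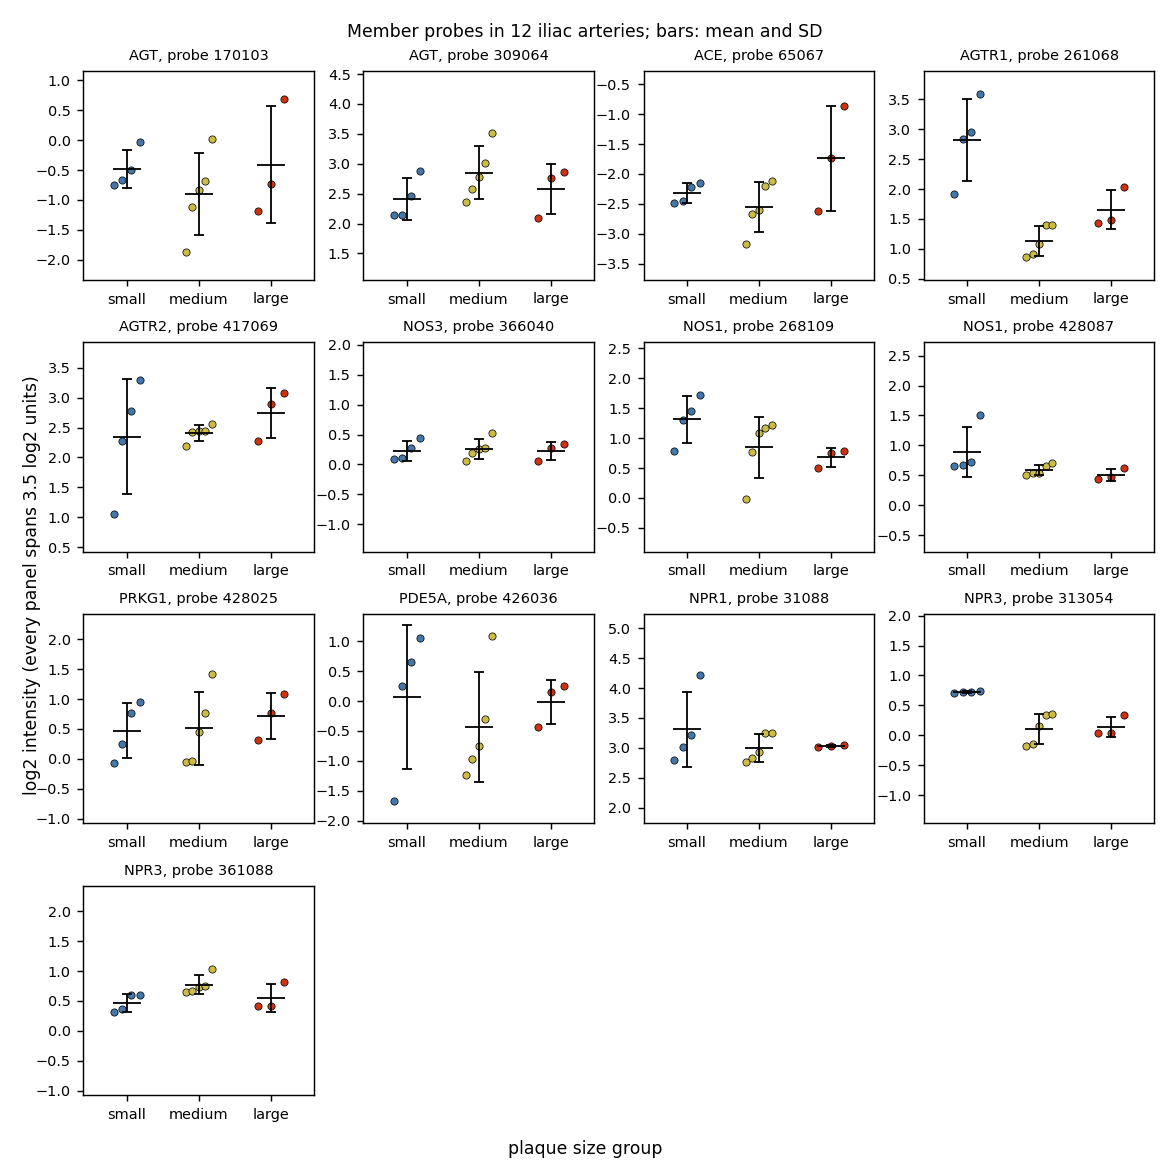
Log2 intensity of the 13 tested member probes in small, medium and large plaque arteries, 1 point per artery, with bars for the mean and SD and every panel spanning the same range of 3.5 log2 units. AGTR1 is lower in all 5 medium arteries than in any small artery, and NPR3 probe 313054 is lower in all 8 medium and large arteries than in the 4 small ones.

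AGTR2, the receptor that opposes AGTR1, was not called in any comparison. Its probe read 9.84, 6.83, 4.84 and 2.08 in small replicates 1 to 4, then 5.93, 4.58, 5.37, 5.42 and 5.43 in medium and 4.84, 8.43 and 7.45 in large. The small arteries thus span the whole range of the other groups and beyond. The difference was 0.06 ± 0.36 in medium against small, with an interval from -0.72 to 0.85, and 0.40 ± 0.41 in large against small, with an interval from -0.50 to 1.30.

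The difference between the receptors was tested on the log2 ratio of the AGTR1 to the AGTR2 probe in each artery, a comparison chosen after the values were seen. The ratio averaged -1.22 ± 0.32 in medium and large arteries (SD, n = 8), with values from -1.57 to -0.80, and 0.48 ± 1.41 in small arteries (SD, n = 4), with values from -0.46 to 2.54. All 8 lay below all 4, a difference of -1.69 (exact two-sided permutation p 0.00202, the smallest that 495 arrangements can give, and 0.00808 adjusted over 4 such ratios). Without small replicate 4, which had the highest AGTR1 and the lowest AGTR2, the difference was -1.003 (exact permutation p 0.00606). In the same comparison AGTR1 alone differed by -1.44 ± 0.27 and AGTR2 alone by 0.23 ± 0.33. Most of the ratio's difference is thus the AGTR1 fall given above, and the ratio is not separate evidence of it. The ratio of human probes says nothing of which receptor was the more abundant.

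Among the medium and large arteries AGTR1 was not called lower with more plaque. In large against medium its difference was 0.52 ± 0.31, with an interval from -0.16 to 1.21. Each of the 3 large arteries read higher than each of the 5 medium ones. It was 1 of the 13 member probes without overlap there, and the share over all probes was not counted. For that comparison limma called 0% of all probes, and 5.04% of them and 1 of the 13 member probes had an unadjusted p under 0.05. Over all 12 arteries the AGTR1 slope was -1.70 ± 0.58 log2 units per mm2 (adjusted p 0.171), where 0.583% of probes were called. On the square root of plaque area, which spreads the small plaques, the slope was -2.02 ± 0.47 and called (adjusted p 0.0372), but on that scale 1586 of all probes were called, where 314 were called on the area itself. No other alternative setting called the slope, and with the contractile covariate it was -0.53 ± 0.61. Within the 8 medium and large arteries it was 0.41 ± 0.57 per mm2, and again 0% of all probes were called, with 5.50% at an unadjusted p under 0.05 by limma and 1 of the 13 member probes at that level.

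The genes whose pattern over the 12 arteries was most like that of AGTR1, among 11417 other genes with a mean intensity over 1, were ZMYND19, MACF1 and NFAT5, at a Pearson r of 0.962, 0.958 and 0.957. With the group means removed the values were 0.879, 0.864 and 0.926. All points share their arrays, and these coefficients describe the likeness only.

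**Figure D2:**
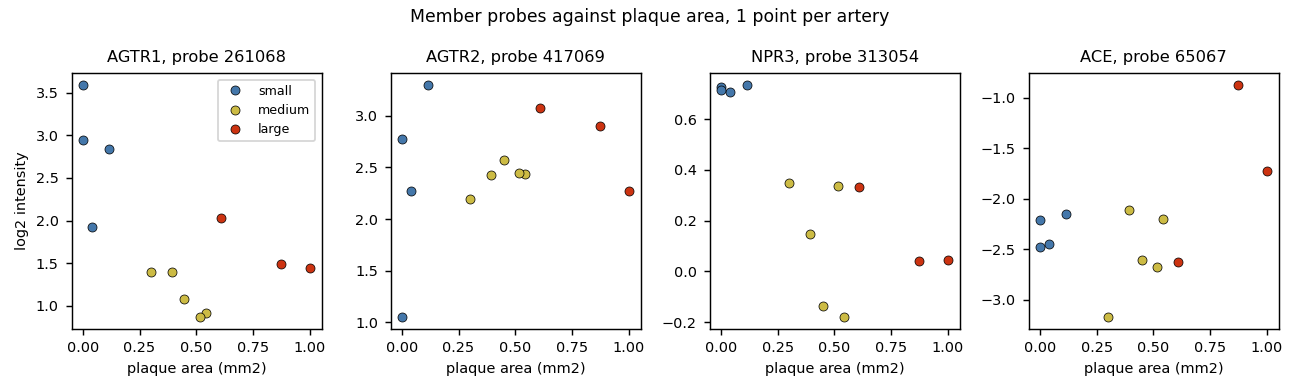
Log2 intensity of AGTR1, AGTR2, NPR3 (probe 313054) and ACE against plaque area in mm2, 1 point per artery, coloured by group. All NPR3 readings at or below 0.113 mm2 lie above those of the larger plaques. The same holds for AGTR1 except in small replicate 3, which lies below large replicate 2 (3.79 against 4.08 on the intensity scale). The AGTR2 readings of the small arteries span those of the rest, and the highest ACE readings are the 2 arteries with the largest plaques.

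Upstream of the receptors, neither the substrate nor the converting enzyme passed the test. AGT probe 309064, which the annotation does not tie to the reference transcript, read 4.44, 5.53, 7.39 and 4.43 in small, then 5.996, 5.17, 8.08, 11.4 and 6.87 in medium and 6.78, 4.28 and 7.28 in large replicates in order. The groups overlapped, and medium replicate 4 was the highest. Its difference was 0.44 ± 0.26 in medium against small (adjusted p 0.407) and 0.16 ± 0.30 in large against small (adjusted p 0.835). Probe 170103, which is tied to the reference transcript, read between 0.274 and 1.62 and gave -0.41 ± 0.41 in medium against small and 0.08 ± 0.46 in large against small, so the probes of this gene had opposite signs in the first of these.

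ACE, the enzyme that forms angiotensin II, was read by a dim probe near the floor of 0.111. It gave 0.226, 0.216, 0.183 and 0.179 in small, then 0.165, 0.0939, 0.232, 0.218 and 0.157 in medium and 0.302, 0.162 and 0.547 in large replicates in order. The medium replicate 2 value was below the floor and was raised to it. Large replicates 1 and 3, which have the largest plaques of the series, read above every other artery. In large against small the difference was 0.58 ± 0.36 (adjusted p 0.465), in large against medium 0.81 ± 0.34 (unadjusted p 0.0363, adjusted p 0.962) and within the 8 medium and large arteries the slope was 2.28 ± 0.68 per mm2 (unadjusted p 0.00899, adjusted p 0.747). None of these passed over all probes, and single large arteries decided their size. Without large replicate 3 the difference was 0.15 in large against small and 0.38 in large against medium, without large replicate 2 it was 1.02 and 1.25, and the slope lay between 1.51 without large replicate 3 and 3.29 without large replicate 1. Macrophages and endothelium are among the cells that make ACE, and the part of the marker levels given above in these readings was not tested.

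**Figure D3:**
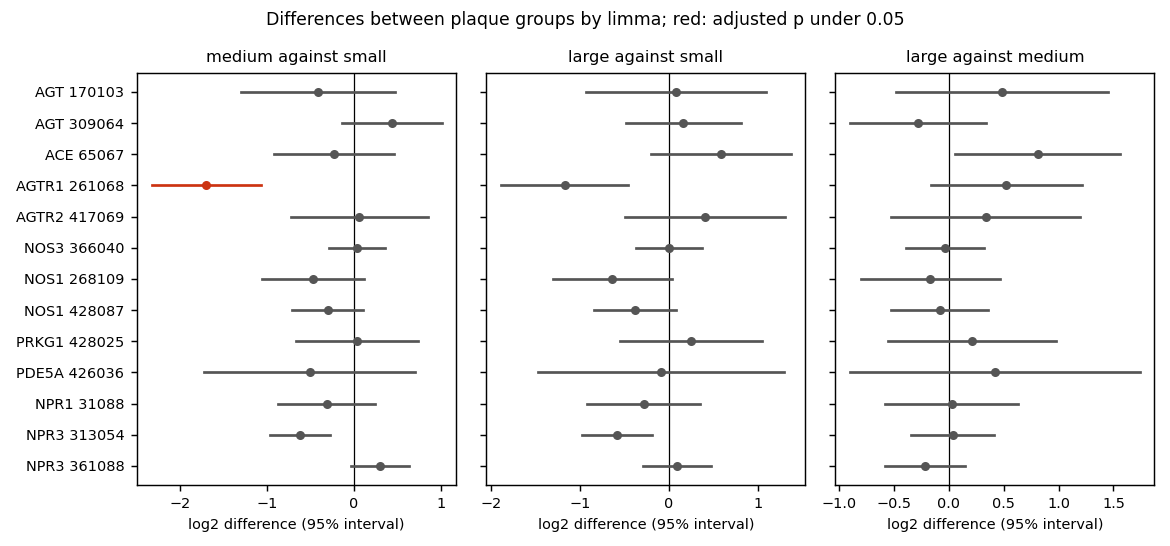
Log2 differences of the 13 member probes with 95% intervals from limma in medium against small, large against small and large against medium plaque arteries; red marks an adjusted p under 0.05 over all probes. AGTR1 in medium against small is the single red interval, and the widest intervals are those of PDE5A.

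The nitric oxide synthases gave no called difference. NOS3, the endothelial enzyme, stayed within the narrowest range of the members: its only measured probe read 1.08, 1.21, 1.36 and 1.06 in small, then 1.05, 1.14, 1.21, 1.20 and 1.44 in medium and 1.05, 1.21 and 1.26 in large. The intervals, -0.29 to 0.36 for medium against small and -0.37 to 0.37 for large against small, bound any difference on this probe. Of the 10 endothelium markers none was called in medium and large against small, with PECAM1 at -0.08 ± 0.15.

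NOS1, the neuronal enzyme, had 2 measured probes, with differences below 0 on both that did not pass the test. Probe 268109, which the annotation does not tie to the reference transcript, read 2.47, 1.72, 3.31 and 2.73 in small. It read 0.986, 1.71, 2.25, 2.32 and 2.13 in medium and 1.42, 1.73 and 1.68 in large. In medium and large against small it differed by -0.55 ± 0.25 (unadjusted p 0.0455, adjusted p 0.238). Probe 428087, which is tied to the reference transcript, differed by -0.34 ± 0.17 (adjusted p 0.293). Without small replicate 3 it differed by -0.13, and that artery's reading of 2.86 stood above the 1.58 to 1.65 of the other small arteries. Nerve and Schwann cell markers, 7 of 10 measured, summed to 9.65 to 12.1 in medium and 10.1 to 12.7 in large against 7.56 to 11.98 in small. Skeletal muscle markers, 5 of 6 measured and another site of NOS1, summed to 35.6 to 59.1 in medium and 33.3 to 56.8 in large against 53.2 to 99.0 in small, where replicate 3 was the highest. The part of these tissues in the NOS1 readings was not tested.

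Of the natriuretic peptide receptors, NPR3 was called on a single probe and NPR1 was not called. NPR1, the cyclase receptor, read 8.09, 9.31, 18.6 and 6.96 in small, then 6.76, 7.58, 9.52, 9.53 and 7.10 in medium and 8.24, 8.12 and 8.15 in large. Small replicate 3 stood far above the rest, and the other 11 arteries lay between 6.76 and 9.53. The difference was -0.31 ± 0.26 in medium against small and -0.28 ± 0.29 in large against small, and without small replicate 3 it was -0.01 and 0.02.

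NPR3, the clearance receptor, read 1.66, 1.65, 1.63 and 1.64 on probe 313054 in small, then 0.909, 1.27, 1.11, 0.883 and 1.26 in medium and 1.03, 1.26 and 1.03 in large. The 4 small arteries lay between 1.63 and 1.66, and all 8 others lay below them. This was the only member probe of 13 whose medium and large arteries did not overlap with small, where 5.16% of all probes did not overlap. In medium and large against small it fell by 0.60 ± 0.15 log2 units (adjusted p 0.0409), a level of 0.660 of that in small. With each artery left out in turn the value lay between -0.65 and -0.56, and the call was kept only without large replicate 2, medium replicate 2 or medium replicate 5. With the contractile markers as covariate the difference was -0.27 ± 0.21 (adjusted p 0.833).

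The other NPR3 probe, 361088, did not share this fall. It read 1.24, 1.29, 1.51 and 1.52 in small, then 1.59, 1.56, 1.67, 2.05 and 1.68 in medium and 1.34, 1.34 and 1.77 in large. All 5 medium arteries lay above the small ones, a separation that was not counted over all probes. The difference of probe 361088 in medium and large against small was 0.19 ± 0.14 (adjusted p 0.488). The log2 ratio of probe 313054 to 361088 averaged -0.57 ± 0.36 in medium and large (SD, n = 8) and 0.25 ± 0.16 in small (SD, n = 4), a difference of -0.82 (exact two-sided permutation p 0.00404, adjusted 0.00808 over the 4 ratios, chosen after the values were seen). The annotation ties probe 361088 to the reference NPR3 transcript and 313054 to an expressed sequence tag, so the fall is given for that probe alone. The corresponding ratios of the AGT probes and of the NOS1 probes differed by 0.56 (exact permutation p 0.275) and -0.20 (exact permutation p 0.416).

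Downstream of cGMP, PRKG1 and PDE5A varied widely between animals of the same group. PRKG1, the kinase, read 1.19, 1.93, 0.954 and 1.69 in small, then 1.71, 2.66, 1.36, 0.965 and 0.976 in medium and 1.70, 2.12 and 1.24 in large. PDE5A, the phosphodiesterase, read 1.19, 1.57, 0.313 and 2.08 in small, then 0.590, 2.12, 0.812, 0.423 and 0.512 in medium and 1.10, 1.19 and 0.737 in large. Medium replicate 2 was the highest and small replicate 3 the lowest of all 12 for both genes.

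For PRKG1 the difference was 0.03 ± 0.32 in medium against small and 0.25 ± 0.37 in large against small. For PDE5A it was -0.51 ± 0.56, with an interval from -1.72 to 0.71, and -0.09 ± 0.63, with an interval from -1.47 to 1.29, the widest intervals of any member. Both are expressed by smooth muscle. In medium and large against small 2 of 9 contractile smooth muscle markers fell, MYLK by 1.54 ± 0.25 and SMTN by 1.68 ± 0.43 (limma adjusted p 0.00616 and 0.049), the list's median was -1.06 against -0.0939 over all probes, and SMTN was named after its value was seen. A second probe of each gene did not share the fall, with 0.50 ± 0.50 for MYLK (adjusted p 0.617) and -0.10 ± 0.14 for SMTN (adjusted p 0.748).

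The members were also set against each other across the 12 arteries, 1 probe per gene, in 45 pairs. PRKG1 and PDE5A had the highest Pearson r, 0.809 (permutation p 0.00184, adjusted 0.0828), with a Spearman rho of 0.734 (permutation p 0.00914, adjusted 0.137). The r was 0.689 without the 2 arteries farthest from the PRKG1 median, 0.848 with group means removed and 0.901 within the 8 medium and large arteries. AGT and NPR3 followed, with an r of 0.768 (permutation p 0.00392, adjusted 0.0882) and a rho of 0.678 (permutation p 0.019, adjusted 0.208). Without the 2 arteries farthest from the AGT median that r was 0.545. Medium replicate 4 read highest of the 12 arteries on both, at 11.4 for AGT and 2.05 for NPR3. AGT and PDE5A ran against each other, with an r of -0.726 (permutation p 0.00736, adjusted 0.11) and a rho of -0.769 (permutation p 0.00472, adjusted 0.137). Without the 2 arteries farthest from the AGT median that r was -0.712. AGT was read here by probe 309064, which is not tied to the reference transcript, and NPR3 by probe 361088. AGT probe 170103 and NPR3 probe 313054 were not used in these pairs. No pair passed after adjustment over the 45.

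Of 60 further genes of these pathways 51 were measured, and 3 were called in medium and large against small, 2 higher and 1 lower. That is 5.88%, where 4.26% of all probes were called. Each of the 51 was read by its probe of highest mean log2 intensity, while the share is over bright and dim probes alike. The median difference of the 51 was -0.0472, against -0.0939 over all probes. AGTRAP, a protein that binds the AGTR1 receptor and promotes its internalization, gave the clearest change of them. It read 0.972, 0.729, 2.04 and 0.856 in small, then 3.56, 3.02, 3.01, 2.61 and 2.30 in medium and 7.29, 4.55 and 6.59 in large. The 3 groups did not overlap, in the order of plaque size, and the share of all probes with such an order was not counted.

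AGTRAP rose by 2.51 ± 0.32 log2 units in large against small (limma adjusted p 0.00398), by 1.44 ± 0.28 in medium against small (adjusted p 0.0184) and by 1.98 ± 0.26 in medium and large against small (adjusted p 0.00186). Its slope over the 12 arteries was 2.97 ± 0.41 log2 units per mm2 (adjusted p 0.0218). In large against medium its difference was 1.07 ± 0.31 (unadjusted p 0.00439, adjusted p 0.82). With the contractile markers as covariate all 4 AGTRAP calls were lost while the values were no smaller: 2.604 in large against small (adjusted p 0.0992), 1.57 in medium against small (0.681), 2.09 in medium and large against small (0.261) and a slope of 3.19 (0.271). The call in medium against small was also lost with the endothelium covariate (1.15, adjusted p 0.135), without both animals numbered apart (1.42, adjusted p 0.0683) and without small replicate 2 (1.27, adjusted p 0.058). That of the slope was also lost with the replicate block (adjusted p 0.17), without both animals numbered apart (adjusted p 0.124), and without small replicate 2, small replicate 4 or large replicate 3. Macrophage markers rose in the same comparison as AGTRAP, with 8 of 9 measured called higher in medium and large against small and a median of 2.83, and their part in the AGTRAP readings was not tested.

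NR3C2, the mineralocorticoid receptor through which aldosterone acts, was the 1 pathway gene called lower. It read 30.9, 34.9, 19.9 and 40.6 in small, then 6.63, 19.5, 16.0, 6.81 and 9.55 in medium and 13.0, 18.7 and 12.8 in large replicates in order. All medium and large arteries lay below all small ones, where 5.16% of all probes did not overlap. Small replicate 3 was again the lowest of its group, and medium replicate 2 came closest to it. NR3C2 fell by 1.53 ± 0.34 in medium against small (limma adjusted p 0.0333) and by 1.30 ± 0.32 in medium and large against small (adjusted p 0.0403), and in large against small its difference was -1.06 ± 0.39 (adjusted p 0.208). The call in medium and large against small held under 10 of 24 alternative settings, and with single arteries left out it was kept only without small replicate 3, medium replicate 2, medium replicate 3 or large replicate 2 (values from -1.50 to -1.16). With the contractile markers as covariate NR3C2 differed by -0.31 in medium and large against small (adjusted p 0.893) and by -0.36 in medium against small (adjusted p 0.993).

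Both other called genes are phosphodiesterases. PDE1B, which calcium and calmodulin activate, read 0.919, 0.448, 0.441 and 0.409 in small, then 1.31, 0.979, 1.11, 0.743 and 0.921 in medium and 1.11, 0.941 and 1.39 in large. It rose by 1.02 ± 0.24 in medium and large against small (limma adjusted p 0.0344), while its other probe differed by -0.08 (adjusted p 0.872), and with single arteries left out the call was kept only without small replicate 1, medium replicate 4 or large replicate 2 (values from 0.91 to 1.30). PDE2A, which cGMP itself stimulates, read 1.45, 1.37, 1.08 and 1.46 in small, then 1.64, 1.64, 1.39, 1.77 and 2.08 in medium and 3.01, 1.88 and 2.47 in large. It was called on the plaque area slope, at 1.11 ± 0.21 log2 units per mm2 (limma adjusted p 0.0384), and in medium and large against small its difference was 0.60 ± 0.17 (adjusted p 0.0692). The slope's call was kept only without medium replicate 1, 2, 3 or 4 when single arteries were left out (values from 0.99 to 1.21).

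**Figure D4:**
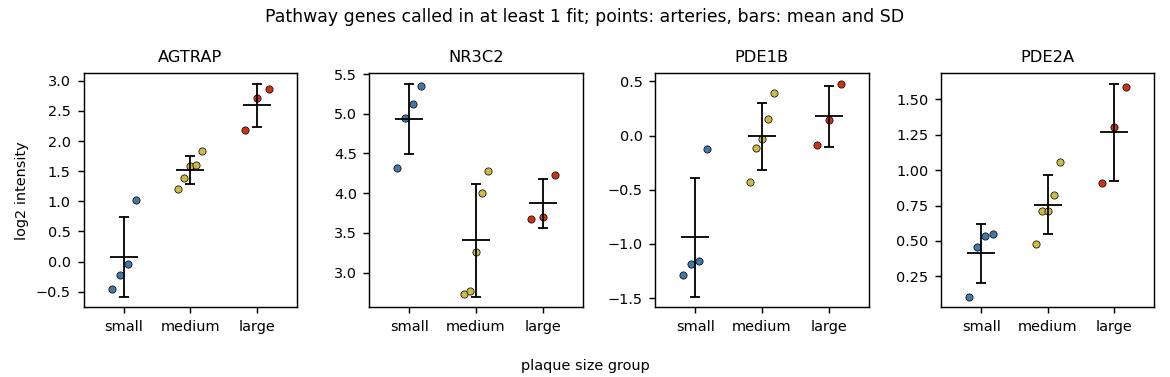
Log2 intensity of AGTRAP, NR3C2, PDE1B and PDE2A, the 4 further pathway genes called in any comparison, in small, medium and large plaque arteries, with 1 point per artery and bars for the mean and SD. AGTRAP is higher in each larger plaque group without overlap, and NR3C2 is higher in every small artery, from 19.9 on the intensity scale, than in any other.

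The remaining pathway genes were counted by role in medium and large against small. Of 8 measured genes of angiotensin formation and breakdown none was called, with a median of 0.139. Angiotensin and kinin receptors and partners were listed together with the mineralocorticoid receptor NR3C2, and of these 10 AGTRAP rose and NR3C2 fell. Of 12 measured genes of nitric oxide formation and its control none was called, with 4 above 0 and a median of -0.369, against -0.0939 over all probes. Of 8 genes of cGMP formation none was called, and of 13 cGMP targets and phosphodiesterases PDE1B rose. In large against small 1 of the 51 rose and none fell, which is 1.96% where 1.15% of all probes were called. In medium against small 1 rose and 1 fell, 3.92% against 3.14% of all probes, and on the plaque area slope 2 rose, 3.92% against 0.583%. These shares are not of like probes, since each pathway gene was read by its brightest probe. The brighter probes are only a part of the 53877, yet with them alone 1149 were called on the slope, against 314 of all probes. In medium and large against small 3347 of them were called, against 2295 of all probes. The share called among brighter probes was thus higher than over all probes, and the pathway shares above are not shown to be an excess.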

How the data were processed

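Single-colour array intensity values were used as deposited by the authors, 1 array per animal; for the image software, background correction and scaling the sources used here give nothing, and array medians near 1 show that the values were scaled before deposit. Of 54359 probes, 479 held no value, and 53877 with at least 2 values in every group were tested. Values below 0.111, the 5th percentile of positive values, were raised to that floor (5.45% of values), and log2 of the deposited intensity was tested. The 3 groups were fitted together in limma 3.58.1 (R 4.3.3), with slopes on plaque area in separate fits, with Benjamini-Hochberg adjustment across the whole set of tested probes and a threshold of 0.05. The scripts were tested on simulated data. No column of another sample was present, and precision is limited by the 12 arrays.

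All probes of the 10 genes are named. The probe of highest mean log2 intensity stands for a gene in lists, correlations and medians. Further pathway genes are named where called in any comparison, and up to 3 markers per cell type by intensity. The genes and lists were chosen with earlier results of these data known, and the ratios of probes were added after the values were seen. Groups and replicate numbers come from the labels, and replicates are separate animals. Alternatives were quantile or median scaling, other floors and filters, variance settings, array weights, a replicate block, marker covariates, square root of area, and leaving out arteries.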

Additional observations from a re-analysis of the deposited data

Results flagged for a closer look

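Of 26 sets of readings, a member probe in the small or the medium group, 2 held an artery far from the others of its group, where chance gives about 1 in 20. On NOS1 probe 428087 small replicate 3 read 2.86, above the 1.58 to 1.65 of the other small arteries. On NPR3 probe 361088 medium replicate 4 read 2.05, above the 1.56 to 1.68 of the other medium arteries.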

How the results depend on the processing

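For the members, 1917 of 1943 recomputed values kept their direction and side of the threshold or were never called, 18 lost a call, 7 gained a call and 1 reversed, the last because the other NPR3 probe gave -0.60 where probe 361088 gave 0.19. Among the uncalled values 129 changed sign. Only the few results called in the main fit could lose a call, so the 1917 are mostly values that were never called. In medium against small 1 member probe was called, against 2 with quantile scaling, a floor at the 20th percentile, the brighter probes alone, or intensity trend and robust variance, and 0 with contractile or endothelium markers as covariate. In large against small the count was 0, and 1 with array weights and without small replicate 3 (0 to 1 with an artery left out). In medium and large against small it was 2, against 1 with array weights, with the replicate block and without both animals numbered apart, 0 with either covariate, and 1 to 2 with an artery left out. The F test's 1 became 2 with the higher floor or the brighter probes, 0 with the replicate block, without both animals numbered apart or with either covariate, and 0 to 1 with an artery left out. The area slope's 0 became 1 with the square root of area.

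The labels do not say that replicate numbers pair the animals, so the block was not used in the reported values. Deviations of same-numbered arteries correlated at -0.159 to 0.216, above 0 in 9 of 10 pairs but not above 0.1 in every pair. Among the arteries of the other groups, 6 of 11 arteries correlated best with one of their own number. How many would do so by chance was not counted, so this is at most a hint from the data and not from the design. With the replicate block AGTR1 differed by -1.36 (limma adjusted p 0.0473) and NPR3 probe 313054 by -0.65 (adjusted p 0.0618) in medium and large against small. The block gave 866 called probes in medium against small where 1693 were called without it, 540 against 1062 by the F test and 0 against 314 on the slope.

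Over all probes, the count of calls in large against small was 617, and 1161 with trend and robust variance, 1420 in the brighter probes, 1247 with array weights, 379 with groups compared alone, 316 without both animals numbered apart, 17 with the contractile covariate and 112 to 1216 with an artery left out. In medium against small the count of 1693 became 773 without both animals numbered apart, 0 with the contractile and 575 with the endothelium covariate, and 847 to 1567 with an artery left out. In medium and large against small 2295 became 1243, 9 and 1004 under those settings, and 1034 to 2187. In large against medium 0 became 3 with array weights, 4 with groups alone, 1 with quantile scaling or the higher floor, and 0 to 3 with an artery left out. The F test's 1062 became 1666, 1802, 382, 0 and 379 with trend and robust variance, the brighter probes, both animals left out, the contractile and the endothelium covariate, and 365 to 1097. The slope's 314 became 777, 1149, 0, 1, 174 and 1586 with trend and robust variance, the brighter probes, both animals left out, the contractile covariate, the 1st percentile floor and the square root of area, and 0 to 746. The causes were not tested.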

Other observations

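Small replicate 3, with a plaque of 0.041 mm2, held an extreme reading of the small group on several members, and so did small replicate 4. Small replicate 3 had the highest NOS1 on both probes (3.31 and 2.86) and the highest NPR1 (18.6), and the lowest AGTR1 (3.79), PRKG1 (0.954) and PDE5A (0.313). Its AGTRAP reading of 2.04 and skeletal muscle marker sum of 99.0 were the highest of the 4 small arteries. Small replicate 4 had the highest AGTR1 (12.1) and PDE5A (2.08), and the lowest AGTR2 (2.08) and NPR1 (6.96). In a group of 4 every probe has a highest and a lowest artery. How often each artery was extreme over all probes was not counted.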
